A study of Caenorhabditis elegans with 2 samples.

Results

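In the CTBP-1 profile, 5 nuclear promoter peaks hold the 7 genes described here, which are tasp-1, K01G5.10, tag-340, nhl-2, mog-4, nspc-17 and T28B11.1. The genes were chosen by the signal that the authors' peak list gives to these peaks, so the height of the signal is a description and was not tested. They are 7 of 19973 protein-coding genes on nuclear chromosomes, and their 5 peaks are among 2911 nuclear peaks of the series-level thresholded list. A promoter peak is here a peak whose summit lies between 1000 bp upstream and 250 bp downstream of the 5' end of any protein-coding transcript in the Ensembl annotation. By that rule 1303 nuclear peaks are promoter peaks and 1422 genes (7.12%) have a promoter summit. Ribosomal protein genes were left out when the genes were chosen, so their absence from the 7 is not a result. Other strong promoter peaks, such as those of F44E5.4 with F44E5.5 and of cdc-48.1, are not among the 5 either.

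The data are chromatin immunoprecipitation followed by sequencing (ChIP-seq) of whole Caenorhabditis elegans at the L4 larval stage, 48 h old and synchronised by starving bleached animals at L1. All animals were of strain RW12203 and carried the allele st12203[ctbp-1::TY1::EGFP::3xFLAG] on X, in which CRISPR placed the tag at the ctbp-1 gene itself, and the antibody recognised GFP. The 2 biological replicates form the sole group, with no second condition, and no untagged or input sample was analysed here. Nothing in the labels says whether the strain derives from more than 1 edited line. Whole animals were sampled, so a peak does not say in which tissue the DNA was bound, and binding in few cells cannot be told apart from weaker binding in many.

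CTBP proteins are transcriptional corepressors that can be brought to DNA by other factors. Whether CTBP-1 contacts DNA directly at these sites was not tested. ChIP signal upstream of a gene marks DNA that was crosslinked to the tagged protein or to its partners. It does not by itself show that the gene is controlled by it.

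The genes are unlike each other in known function. tasp-1 encodes the worm taspase, a threonine aspartase, and in mammals taspase cuts MLL histone methyltransferases. K01G5.10 is annotated in RefSeq as a haloacid dehalogenase-like hydrolase domain protein. tag-340 encodes a START domain protein, a fold that binds lipids in other proteins. nhl-2 encodes a TRIM-NHL protein that works with the microRNA-induced silencing complex in C. elegans. mog-4 encodes a DEAH-box RNA helicase of the pre-mRNA splicing machinery, which C. elegans hermaphrodites need to switch the germline from sperm to oocytes. nspc-17 belongs to the nematode specific peptide family, group C, and T28B11.1 is annotated as an F-box domain protein.

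The reference sequence at the 5 summits is shown so that motifs, stretches shared between the 5 windows and a repeat can be seen. How often windows of other peaks share exact stretches with each other is not given here. Each sequence is the + strand of build ce11, 5′ to 3′, and begins 75 bases before the summit. It ends 80 bases after the summit, or 61 bases after it at tasp-1, where the transcript starts on the next base. At tasp-1 and K01G5.10 (chrIII:10759170-10759306) the capitals mark a 14-base stretch shared with the tag-340 and nhl-2 peak and a GAGAGA hexamer. At nspc-17 (chrX:14525809-14525964) they mark the hexamer GGGACA or its reverse complement. At tag-340 and nhl-2 (chrIII:4899848-4900003) they mark the palindrome TGGCNNNNNGCCA and the same 14-base stretch, which overlaps the second palindrome by 1 base. At mog-4 (chrII:14561779-14561934) they mark the part that belongs to a dispersed repeat. At T28B11.1 (chrV:10715891-10716046) they mark CACGTG and the palindrome.
tasp-1 and K01G5.10: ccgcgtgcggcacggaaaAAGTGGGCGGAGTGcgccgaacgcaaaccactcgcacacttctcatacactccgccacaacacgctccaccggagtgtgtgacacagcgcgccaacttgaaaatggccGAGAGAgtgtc
nspc-17: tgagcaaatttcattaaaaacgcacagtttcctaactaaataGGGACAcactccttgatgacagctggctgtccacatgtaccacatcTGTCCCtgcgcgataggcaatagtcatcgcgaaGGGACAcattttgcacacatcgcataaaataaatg
tag-340 and nhl-2: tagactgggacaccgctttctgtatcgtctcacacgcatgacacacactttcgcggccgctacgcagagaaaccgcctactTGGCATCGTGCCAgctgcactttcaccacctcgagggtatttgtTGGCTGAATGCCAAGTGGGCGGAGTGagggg
mog-4: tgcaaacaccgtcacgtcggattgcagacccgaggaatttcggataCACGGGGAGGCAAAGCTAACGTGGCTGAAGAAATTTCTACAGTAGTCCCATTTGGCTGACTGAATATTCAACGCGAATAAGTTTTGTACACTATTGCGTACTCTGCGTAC
T28B11.1: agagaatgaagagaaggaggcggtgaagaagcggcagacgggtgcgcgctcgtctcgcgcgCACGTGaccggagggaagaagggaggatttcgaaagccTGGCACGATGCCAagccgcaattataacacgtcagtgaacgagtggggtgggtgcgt

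None of the 5 windows overlaps an exon of a protein-coding gene, and the share of all nuclear peaks without such an overlap is not given here. The GC content within 75 bp of the summit was 60.3% at tasp-1 and K01G5.10, 59.6% at T28B11.1 and 56.3% at tag-340 and nhl-2. These 3 windows were richer in G and C than 96.7%, 96.0% and 91.2% of the nuclear peaks. The windows at mog-4 (46.4%) and nspc-17 (44.4%) were near the median of all nuclear peaks, 46.4%.

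The tasp-1 and K01G5.10 peak (summit III 10759245, width 330 bp) was the second strongest nuclear peak, with a signal of 718.7 in the series-level list. Replicate 1 gave 335.6 and replicate 2 gave 388.6, and the peak held rank 2 in the thresholded list of either replicate. With the mitochondrial peaks included it held rank 11 of 2927. It lies between divergent genes. The summit is 62 bp upstream of the nearest tasp-1 5' end, with other annotated tasp-1 starts at 140 and 424 bp, and 723 bp upstream of K01G5.10 on the opposite strand. Both genes are followed closely on their own strand, tasp-1 by dpy-28, a condensin and dosage compensation gene, after 109 bp, and K01G5.10 by rnf-113 after 0 bp. Within 1 kb the series-level ranked list, which holds 85296 nuclear peaks before thresholding, has weak summits 841 bp to the left (signal 32.1) and 835 bp to the right (32.0). They lie inside K01G5.10 and tasp-1, and neither passed the authors' threshold.

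The next peak by signal, at nspc-17 (summit X 14525884, width 487 bp), had a signal of 528.3 and rank 7. It gave 258.8 in replicate 1 and 255.2 in replicate 2, at ranks 7 and 8. The summit is 703 bp upstream of nspc-17, and on the other side the nearest protein-coding 5' end is that of nspc-18 at 1775 bp, which points toward the summit. A further summit within the same region, 201 bp to the right, had a signal of 95.2 and rank 1201 in the series-level thresholded list. Replicate 1 gave 38.5 there and replicate 2 gave 5.49, so unlike the main summit it differed several-fold between replicates, and it was in the thresholded list of neither. A weak ranked summit lies 988 bp to the left, at 10.6.

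The tag-340 and nhl-2 peak (summit III 4899923, width 291 bp) had a signal of 492.1 and rank 8. It gave 228.1 in replicate 1 (rank 11) and 261.8 in replicate 2 (rank 7). It also lies between divergent genes, 585 bp upstream of tag-340 and 838 bp upstream of nhl-2. The summit falls inside the noncoding gene F26F4.14, 27 bp from its 5' end, and that end is the nearest annotated one. In the ranked list the sole other summit within 1 kb is 911 bp to the left, inside nhl-2, with a signal of 24.0. On its own strand nhl-2 is followed after 17 bp by F26F4.6.

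The mog-4 peak (summit II 14561854, width 253 bp) had a signal of 433.7 and rank 15. It gave 219.2 in replicate 1 (rank 14) and 210.0 in replicate 2 (rank 17). The summit is 255 bp upstream of the long mog-4 transcript, and the next protein-coding 5' end on the other side, madf-5, is 11761 bp away. A short mog-4 transcript starts inside the gene, 8574 bp from the summit. A weaker thresholded summit lies within mog-4 at II 14555252 with a signal of 63.5. Within 1 kb of the main summit the ranked list has summits of 14.8, 737 bp to the left, and 14.2, 657 bp to the right.

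The T28B11.1 peak (summit V 10715966, width 244 bp) had a signal of 431.4 and rank 16. It gave 201.2 in replicate 1 (rank 19) and 239.0 in replicate 2 (rank 10). This summit is inside the gene, between exons of the longest transcript, whose 5' end is 16456 bp away. It counts as a promoter peak through a shorter transcript whose 5' end is 718 bp downstream of the summit. The 5' end of another, at 1088 bp, is outside the promoter window. It also lies within the noncoding genes T28B11.18 on the + strand and T28B11.4 on the − strand, which overlap there. A second thresholded summit inside the gene, at V 10722186, had a signal of 74.9. Within 1 kb the ranked list has 1 other summit, 610 bp to the left, at 19.3.

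**Figure D1:**
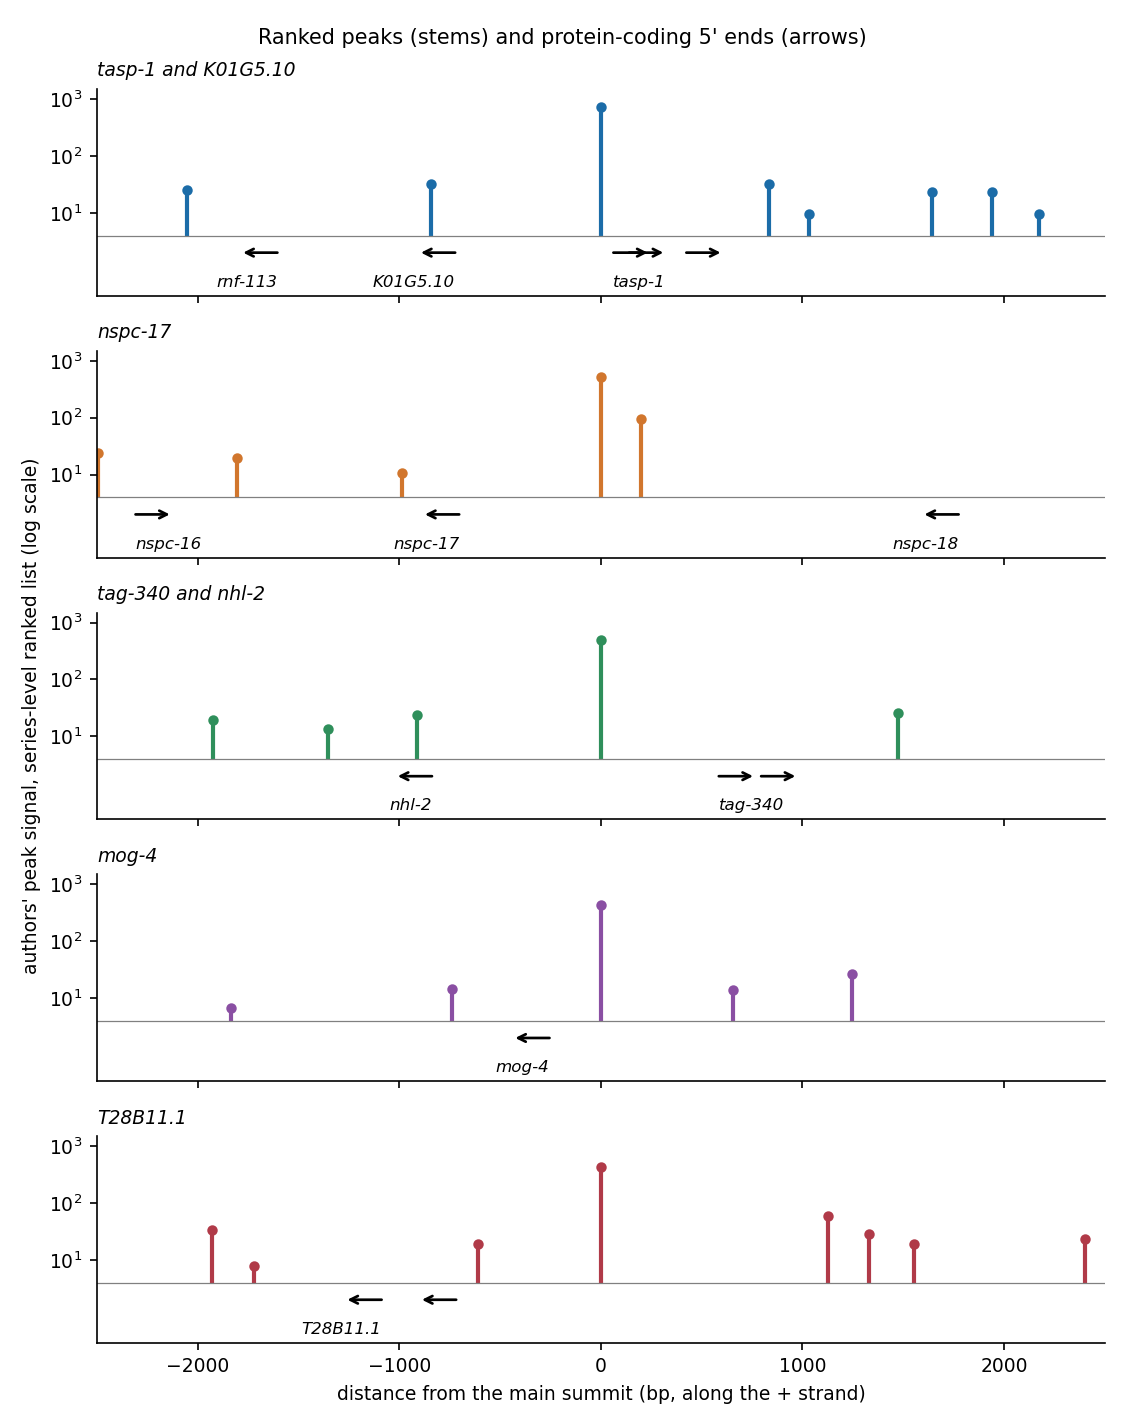
Stems give the authors' signal (log scale) of each peak of the series-level ranked list within 2500 bp of the 5 main summits, and arrows start at protein-coding 5' ends and point along the gene. The main summit is the tallest in each panel, and the tallest neighbour within 1000 bp is the one 201 bp from the nspc-17 summit, at 95.2.

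**Figure D2:**
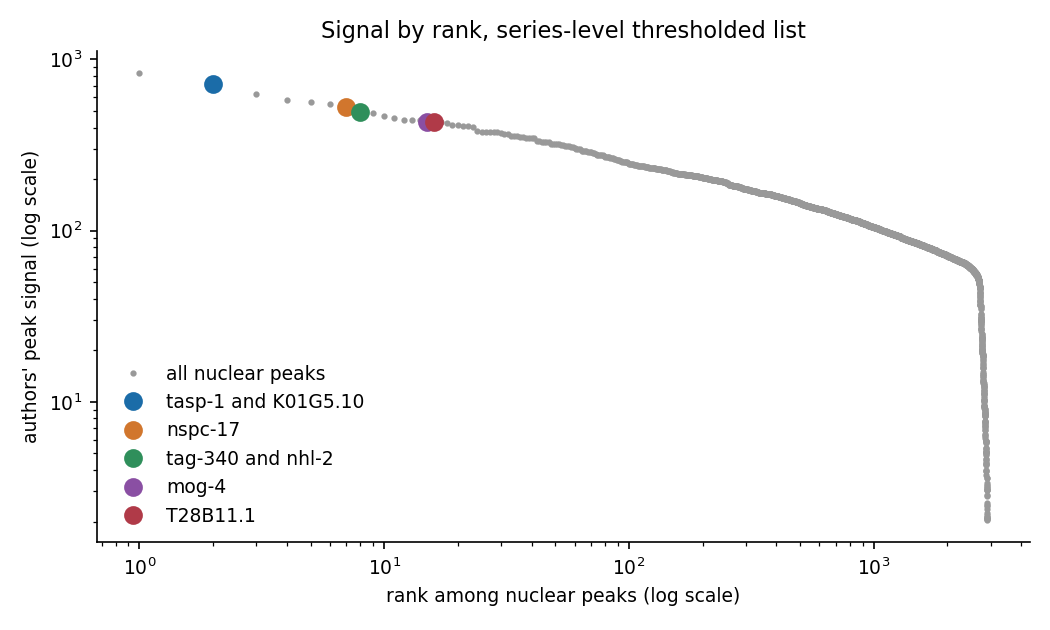
Signal against rank, both on log axes, for the 2911 nuclear peaks of the series-level thresholded list, with the 5 peaks in colour. They sit at ranks 2, 7, 8, 15 and 16.

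By signal the 5 peaks are promoter peaks 2, 5, 6, 8 and 9. The promoter peaks directly above or below them were those of rpl-3 (832.3), the Hsp70 family genes F44E5.4 and F44E5.5 (631.5), the AAA ATPase gene cdc-48.1 (546.2), Y17G9B.5 with rpl-20 (442.1) and rpl-15 with K11H12.8 (429.4). The last of these is 2.01 signal units below T28B11.1, and mog-4 is 2.29 units above T28B11.1. These gaps are smaller than the difference between replicates at either gene, so the order at this end of the group is not resolved. The tasp-1 and K01G5.10 peak was above the other 4 in either replicate, with no overlap.

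The replicates gave the 5 sites at nearly the same place and height. The mean signal over replicates was 362 ± 37.5 at tasp-1 and K01G5.10, 257 ± 2.56 at nspc-17, 245 ± 23.8 at tag-340 and nhl-2, 215 ± 6.53 at mog-4 and 220.1 ± 26.8 at T28B11.1 (SD, n = 2 each). On the log2 scale, replicate 2 minus replicate 1 ran from −0.06 at mog-4 to 0.25 at T28B11.1. Over the 2859 nuclear peaks with a ranked peak in both replicates the median of that difference was 0.06, with 5% of the peaks below −0.78 and 5% above 0.89. Summits of the replicates were 1 to 22 bp apart at the 5 peaks, against a median of 28 bp over the 2859. The 2859 had a median signal of 86.2, against 492.1 at the 5 peaks. Neither the log2 difference nor the summit distance is given here for the 100 strongest. All 5 overlapped a thresholded peak of both replicates, against 36% of all nuclear peaks and 99 of the 100 strongest. The share at the 5 peaks thus matches that of other strong peaks, and the series-level list that chose them was made from the same replicates.

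**Figure D3:**
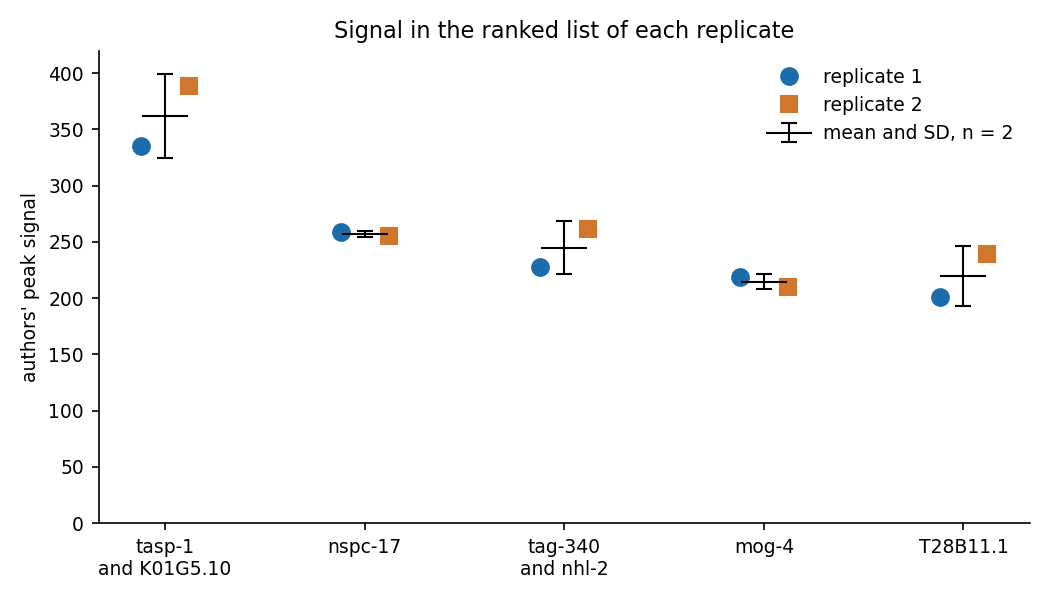
The authors' signal of each peak in the ranked list of replicate 1 (circles) and replicate 2 (squares), with the mean and SD of the 2 replicates in black. At mog-4 and nspc-17 the replicates differ by under 10 units, and at tasp-1 and K01G5.10 replicate 2 is the higher at 388.6.

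All 5 peaks had another ranked summit within 1 kb, as did 88.1% of all nuclear peaks, 90.8% of promoter peaks and 81 of the 100 strongest. At nspc-17 such a summit also passed the authors' threshold. The width of the peaks was 244 to 487 bp, and none had the width of exactly 364 bp that 90.1% of all nuclear peaks have. Of the 100 strongest nuclear peaks 1 had it. The main signal was 5.55 to 29.3 times that of the strongest other ranked summit within 1 kb, with a median of 22.3. The same ratio had a median of 2.94 over all nuclear peaks and 11.4 over the 100 strongest. The ratio has the signal that chose the peaks as its numerator. In 2 of the 5 peaks the nearest protein-coding 5' ends on both sides were within 1000 bp and pointed away from the summit. That arrangement held for 16.3% of promoter peaks and for 16 of the 100 strongest nuclear peaks. The 100 strongest include peaks outside promoters, which cannot have this arrangement. The share among strong promoter peaks alone is not given here. No tRNA, snoRNA or snRNA gene lay within 200 bp of any of the 5 summits, and the nearest was 39601 bp away. Such a gene was within 200 bp of 14.2% of all nuclear peaks, of 7.98% of promoter peaks and of 16 of the 100 strongest nuclear peaks.

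The tag-340 and nhl-2 window and the T28B11.1 window share an exact 16-base stretch close to their summits, CTTGGCATCGTGCCAG. It starts 4 bp to the right of the first summit and lies on the opposite strand from 23 bp to the right of the second. These 16 bases occur 3 times in the nuclear genome. Of the 2911 peaks, 2 hold them within 150 bp of the summit, and these are the 2 peaks from which the stretch was taken. The 16 bases contain the spaced palindrome TGGCNNNNNGCCA, which reads the same on both strands. It is the core of the sequence that nuclear factor I proteins recognise in animals. The tag-340 and nhl-2 window holds the palindrome at +6 to +18 and again at +50 to +62, and T28B11.1 at +24 to +36. Within 75 bp of the summit it was present in 2 of the 5 peaks, in 54 of 2911 nuclear peaks (1.86%), in 2.92% of promoter peaks and in 0.259% of the windows of the same length at protein-coding 5' ends. The windows at protein-coding 5' ends had a median GC content of 33.1%, against 46.4% at nuclear peaks. Base composition was not allowed for. A second copy of the palindrome in the same peak window was found in 3 nuclear peaks. The strongest other peaks with the palindrome were those of rpl-15 with K11H12.8 (429.4) and of set-16 with drr-2 (348.2). Nuclear peaks with the palindrome had a median signal of 122.6, against 85.8 over all nuclear peaks. The palindrome was noticed in the sequences printed above, so its count in the 5 peaks and the median signal are descriptions. The 54 peaks with it include the 2 described here, which were chosen for high signal. Binding by nuclear factor I was not measured.

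Each pair of the 5 windows of 150 bp on either side shares some exact stretch, and the longest per pair was 8 to 16 bases. After the 16 bases above, the longest was the A-rich run AAAAACAAAAATAAA, 15 bases shared by the tasp-1 and K01G5.10 window and the mog-4 window, which occurs 211 times in the nuclear genome and in 3 of the 2911 peaks. The mog-4 and T28B11.1 windows share 10 bases that occur 426 times in the nuclear genome. Of the 2911 peaks only these 2, from which the 10 bases were taken, hold them. A 14-base stretch, AAGTGGGCGGAGTG, is shared in the same orientation by the tasp-1 and K01G5.10 window, 57 bp left of the summit, and the tag-340 and nhl-2 window, 62 bp right of it. It occurs 16 times in the nuclear genome. No peaks but these 2 of the 2911, from which it was taken, hold it within 150 bp of the summit. It contains GGGCGG, the GC box letters, which were within 75 bp in those 2 of the 5 peaks. They were in 8.90% of all nuclear peaks, in 10.4% of promoter peaks and in 4.76% of the windows at all protein-coding 5' ends. Base composition was not allowed for here either.

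The summit of the tasp-1 and K01G5.10 peak lies in a further stretch that resembles another strong peak. A run of 38 bases (chrIII:10759218-10759255) matches the region under the rpl-35 promoter peak (chrIII:7854670-7854707, read on the − strand; signal 380.9, rank 24) at 86.8% identity, and both summits fall inside it. Other parts of the tasp-1 window matched C06H2.7 (43 bases, 86.0% identity) and lin-40 (80 bases, 76.25%), under ranked peaks of 10.6 and 24.9. A match in gfm-1 (65 bases, 78.5%) was under no peak. The share of other peaks with such short matches is not given here. The tasp-1 and rpl-35 stretches are shown so that the 5 differing bases, in capitals, can be seen.
tasp-1 and K01G5.10: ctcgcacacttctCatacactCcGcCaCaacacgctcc
rpl-35: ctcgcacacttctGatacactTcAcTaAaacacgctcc

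GAGAGA was found in 1 of the 5 windows of 75 bp on either side, that of tasp-1 and K01G5.10, against 31.3% of all nuclear peaks, 30.2% of promoter peaks and 13.0% of the windows at all protein-coding 5' ends. CACGTG, the E-box letters, was in 1 of 5, at −14 to −9 of the T28B11.1 summit, against 4.60% of nuclear peaks. TATAAA and GATAAG were in 0 of 5, against 7.49% and 4.81% of nuclear peaks. The nspc-17 window holds GGGACA 3 times, at −33 to −28, at +13 to +18 on the − strand and at +46 to +51. The tag-340 and nhl-2 window holds it 1 time, at −69 to −64, where it is not capitalised above. At least 1 such hexamer was within 75 bp in 2 of the 5 peaks and in 4.81% of nuclear peaks and at least 3 in 2 of the 2911, a count made after the repeat was seen. All motifs were searched on both strands.

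The mog-4 summit lies 29 bp inside a dispersed repeat. From 29 bp left of the summit to the end, or nearly the end, of the 150 bp window on the right, the sequence recurs at 7 other places with 94.9% to 98.9% identity over 178 to 184 bases. At the far end the element closes with an exact inverted copy of 25 bases, so that it spans 2192 bp (II 14561825 to 14564016) and takes in a gene annotated as a pseudogene. Of the 7 other copies, 5 have such an inverted 25-base partner, at spans of 1679 to 2370 bp. A second copy in the genome (at least 90% identity over at least 100 bases) was found for 1 of the 5 windows, for 13.8% of all nuclear peaks and for 20 of the 100 strongest.

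Only some copies of the repeat lie under peaks. Of the 7 close copies, 3 are under thresholded peaks, with signals of 161.3 and 110.3 on chromosome I and 142.1 on chromosome III inside brc-1, the worm BRCA1 gene. The partner end of the brc-1 copy has its own thresholded peak with a signal of 119.8. A further 2 close copies are under ranked peaks alone, at 38.7 and 10.7, and the other 2 are under none. Counting all 24 matches of at least 100 bases, down to 70.5% identity, 12 are under thresholded peaks with signals of 70.9 to 403.1. Among these more diverged copies are the nuclear peaks of rank 23 (IV 4725608, signal 403.1) and rank 40 (I 4769612, signal 348.0), at 72.7% and 73.2% identity. How often other sequences of the genome lie under thresholded or ranked peaks is not given here. Reads from near-identical copies may be placed at any of them, and the sources used here do not say how the authors treated such reads. The division of signal between mog-4 and the close copies is uncertain.

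**Figure D4:**
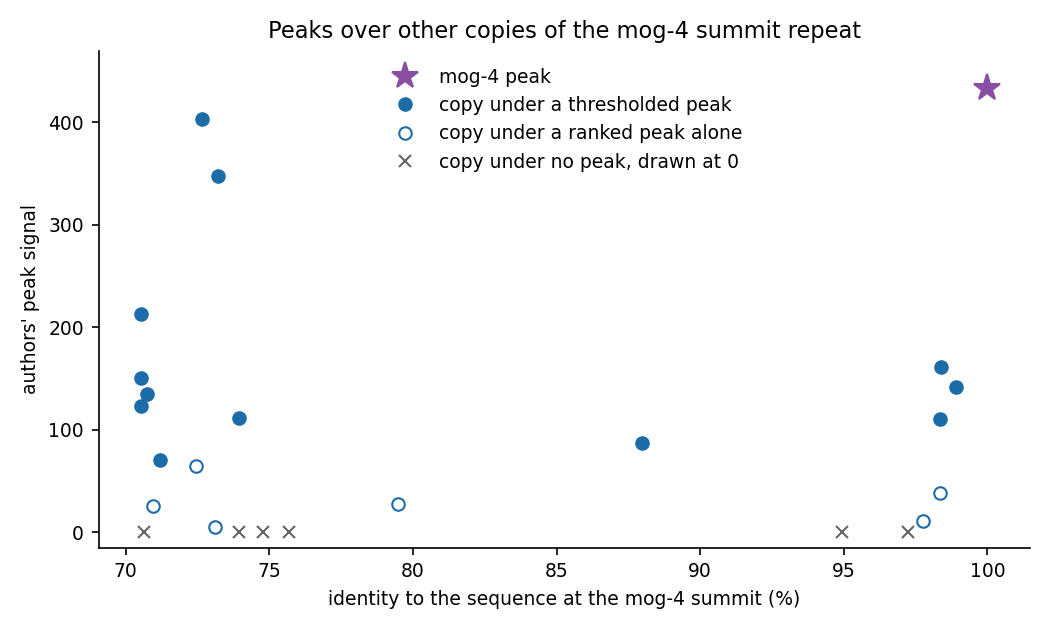
Each point is a match of at least 100 bases to the sequence at the mog-4 summit, by its identity to that sequence and the authors' signal of the series-level peak over it, with matches under no peak drawn at 0. The mog-4 peak (star, 433.7) is the highest, and the next, at 403.1 and 348.0, are over copies of 72.7% and 73.2% identity.

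Copies of the genes themselves were looked for by matching a transcript of each gene to the genome. The nspc-17 transcript had 19 matches of at least 100 bases, led by nspc-20 (97.4% identity), nspc-19 (96.5%), nspc-18 (95.6%) and nspc-16 (93.4%), which lie beside it on X. Of 18 nspc loci in the annotation 1 (5.56%) had a promoter summit in the thresholded list, against 7.12% of all protein-coding genes, and that locus is nspc-17, which was chosen for its peak. The window at the nspc-17 summit itself had no second copy of at least 90% identity over at least 100 bases. The mog-4 transcript had 6 partial matches of 66.5% to 74.1% identity, in the related helicase genes mog-1, mog-5, ddx-15 and ddx-35. The transcripts of the other 5 genes had none.

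Genes related to the 7 by family or pathway were listed beside the 7.12% of all protein-coding genes that had a promoter summit. Counts that include nhl-2 or mog-4 contain a gene chosen for its peak, so the count without it is given too. Among 1422 genes with a promoter summit the median of the signal was 94.5. Of 5 TRIM-NHL genes, nhl-2 had a promoter summit, and 0 of the 4 besides it did. Of 9 microRNA effector genes 4 had one, which were nhl-2, ain-1 (a GW182-type protein, signal 239.4), alg-2 (an Argonaute, 88.0) and cgh-1 (a DDX6-type helicase, 72.3). Without nhl-2 the count was 3 of 8 and the median signal 88.0. Of 18 DEAH helicase and splicing genes 4 had one, which were mog-4, prp-19 (118.8), prp-8 (110.4) and snrp-200 (79.4). Without mog-4 the count was 3 of 17 and the median signal 110.4. Of 15 germline sex determination genes 3 had one, which were mog-4, fem-1 (71.0) and tra-1 (65.0). Without mog-4 the count was 2 of 14 and the median signal 68.0. Of 10 genes of the COMPASS histone methyltransferase complexes, the kind of complex to which the mammalian MLL proteins belong, 2 had one, which were set-16 (348.2, rank 39) and ash-2 (103.6).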

How the data were processed

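The data were 8 peak lists on build ce11 from 2 biological replicates, per the labels. Each replicate had a ranked and a thresholded list, and 4 lists described the series. The deposited listings trace the series-level lists to alignments from both replicates plus 1 file of undescribed content. The names and versions of aligner and peak caller, and read numbers, are not given in the sources consulted. Sequencing depth is therefore unknown. The signal of a peak is the authors' own value, deposited with the peak, and was used here to describe and rank peaks within a list. The deposited score is a scaled irreproducible discovery rate (IDR), which was 1000 at all 5 peaks. The deposited ranked lists give the −log10 of the global IDR, which was 5 there. In the series-level ranked lists, 16 columns of single inputs were not used.

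The summit was the deposited start plus the summit offset, counted from 1. Genes came from the Ensembl release 115 annotation of WBcel235, which has the coordinates of ce11, and all peaks end within its chromosomes. Peaks of different lists were paired by an overlap of at least 1 bp. Copies were searched with blastn 2.17.0 (e-value 0.001, no low-complexity filter) using 301-base windows. Tables and figures were made with Python 3.11.15, pandas 2.3.3, numpy 2.4.6 and matplotlib 3.10.9. The assignment of summits to promoters was tested on summits planted at known distances from annotated 5' ends. A plain search for GAGAGA was tested on a random sequence with the motif planted. The search that gave the motif counts was not itself tested.

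The 7 genes, the 6 related gene lists and the motifs were chosen with earlier results of these data known. The palindrome TGGCNNNNNGCCA and the hexamer GGGACA were added after the sequences were seen. Genes named besides the 7 are those with the nearest 5' ends, the next gene on the same strand, sequence copies, the promoter peaks directly above and below in signal, and list members with a promoter summit. With 1 group and 2 replicates no test between conditions was possible and no p-value is given. The alternatives changed the peak list, the promoter window, distances, motif windows and copy thresholds, or left out each replicate.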

Additional observations from a re-analysis of the deposited data

How the results depend on the processing

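All 7 genes had a promoter summit in the conservative thresholded list, in the thresholded list of either replicate alone (7 without replicate 1 and 7 without replicate 2) and with a window of 2000 bp upstream to 500 bp downstream. With a window of 500 bp upstream to 100 bp downstream 2 did, tasp-1 and mog-4, and 5 did when a peak counted for the nearest 5' end only. The 7 were chosen by their peaks in a list made from the same replicates, so these counts are descriptions. The share of all protein-coding genes under each of these settings is not given here. All 5 peaks were in the thresholded lists of both replicates also when summits had to be within 100 bp. A secondary ranked summit within 1 kb was found at 5 peaks (88.1% of all nuclear peaks have one), within 500 bp at 1, in the thresholded list at 1, and at 3 to 5 with a replicate left out (3 without replicate 1). Divergent genes numbered 2 peaks within 1000 bp and 2000 bp and 0 within 500 bp. GAGAGA was in 1 window at 75 bp, 0 at 50 bp and 2 at 150 bp. A second copy was found for 1 window, also at 80% identity over 50 bases, and for 0 at 95% over 200 bases, since the repeat fills less than that of the mog-4 window. The ranks of the 5 peaks kept to 28 or better under every alternative run, and the lowest ranks came from including the mitochondrial peaks. No paired analysis was possible because there is 1 group. Depth is unknown, so counting error of the signal could not be given, and 2 replicates limit how well a spread is known.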
